A study of Mus musculus with 6 samples.

Results

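The 10 genes described here encode proteins that bring glucose and lactate into the cells of the testis or interconvert lactate and pyruvate. They are the monocarboxylate carriers Slc16a1, Slc16a3 and Slc16a7, the accessory glycoproteins Bsg and Emb, the glucose carriers Slc2a1, Slc2a3 and Slc2a8, and the lactate dehydrogenase subunits Ldha and Ldhb. The choice was by gene symbol and role, made with earlier results of these data known, and all 10 were found among the 24411 genes of the files. Messenger RNA was measured by sequencing of whole testes of C57BL/6 mice, an inbred laboratory strain, with 3 libraries labelled wildtype (WT) and 3 labelled MRP5-/- and MRP9-/- (double knockout, DKO). MRP5 and MRP9 are membrane transporters of the ABCC family encoded by Abcc5 and Abcc12. The mice were age matched according to the series, the age itself is not in the labels, and neither is the way in which the 2 alleles were made. The labels name no other treatment or allele in either group. The labels number the mice separately but do not describe litters or cages, so the p-values rest on the spread among the libraries within each group.

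Developing germ cells are nursed by Sertoli cells, the somatic cells of the seminiferous tubule. Sertoli cells take up glucose, turn much of it into lactate and release the lactate, which spermatocytes and spermatids take up and oxidize behind the blood-testis barrier. Lactate crosses membranes through proton-linked monocarboxylate carriers, which need an immunoglobulin-like partner, basigin or embigin, to reach the cell surface. Male mice without basigin are sterile. Lactate dehydrogenase is a tetramer of LDHA and LDHB subunits in most tissues, while germ cells also make the testis subunit LDHC.

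The libraries labelled DKO held 42673615 to 67131103 expected counts, and those labelled WT held 26753721 to 31745969. The mean fragment length was 275 to 317 bases in libraries labelled DKO and 230 to 258 bases in those labelled WT, so neither depth nor fragment length overlapped between the groups. Abcc12 was at 72.6 to 82.4 normalized CPM, the number of counts scaled to library size, in libraries labelled DKO and at 158 to 165 CPM in those labelled WT. Abcc5 was at 16.7 to 17.0 CPM and 10.5 to 12.3 CPM, higher in libraries labelled DKO, which goes against the label as far as the amount of transcript can show. A missing exon would not be seen in totals over a gene, and groups are therefore named by their labels. The 10 markers of spermatids and the 10 of spermatocytes were detected in both groups. Of the 6 epididymis markers none passed the filter on low counts, with a summed level of at most 0.205 CPM, and Lcn5 and Lcn8 were at 0 in all libraries. Among the 6 erythroid markers, Hbb-bs and Hba-a2 were at 0 in all libraries. Hba-a1 and Alas2 of the same list passed the filter on low counts, so these zeros do not show that blood was absent.

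Promoter sequences are shown for the 2 lactate dehydrogenase members, which differed in opposite directions between the groups without passing the test. RefSeq promoters of build GRCm38.p6, which run from 250 bases before to 50 bases after a start site, were listed for 7 of the 10 genes and not for Slc16a7, Bsg and Slc2a3. The Ldha window is the more upstream of 2 listed, at chr7:46845554-46845853 on the plus strand, and the Ldhb window is at chr6:142507908-142508207 on the minus strand. Capitals mark matches, on either strand, to ACGTG, a form of the core of the hypoxia response element, and to TGACGTCA, the cyclic AMP response element. The other form of that core, GCGTG, was not searched for and is not marked.
Ldha: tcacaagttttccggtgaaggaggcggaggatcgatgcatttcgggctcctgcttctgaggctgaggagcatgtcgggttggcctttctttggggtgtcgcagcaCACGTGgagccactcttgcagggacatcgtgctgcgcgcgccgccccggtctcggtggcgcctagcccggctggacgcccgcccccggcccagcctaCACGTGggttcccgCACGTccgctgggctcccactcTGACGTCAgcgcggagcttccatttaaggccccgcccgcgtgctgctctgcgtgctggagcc
Ldhb: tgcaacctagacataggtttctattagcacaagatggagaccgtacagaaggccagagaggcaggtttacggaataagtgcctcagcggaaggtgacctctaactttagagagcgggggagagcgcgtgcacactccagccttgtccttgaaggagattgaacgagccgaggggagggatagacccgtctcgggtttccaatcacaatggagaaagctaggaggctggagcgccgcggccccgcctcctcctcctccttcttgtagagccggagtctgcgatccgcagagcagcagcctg
The Ldha window holds ACGTG in 3 stretches, 2 of which read the same on both strands and so match on each, and 1 TGACGTCA, with no overlap between the motifs. The other Ldha window listed and the Ldhb window hold neither of these searched sequences. Among all 32851 listed promoter windows of 300 bases, 19.6% hold ACGTG and 1.79% hold TGACGTCA. Of the other 5 genes with a listed window, Slc16a1, Slc16a3 and Slc2a1 hold ACGTG, and none of the 5 holds TGACGTCA. No factor was measured at these windows.

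Levels were first ordered by TPM, the share of transcripts after division by effective length, a unit that corrects for gene length and so allows genes to be compared. Ldha, whose subunit favours making lactate from pyruvate, was highest at 1115 TPM on average over the 6 libraries (range 1053 to 1196). Bsg, the basigin gene, followed at 710 TPM (608 to 797), Slc2a3, which encodes the high-affinity glucose carrier GLUT3, at 621 TPM (569 to 690), and Slc16a7, which encodes the high-affinity carrier MCT2, at 305 TPM (246 to 394). Ldhb, the subunit typical of heart, was at 133 TPM (103 to 180), and Slc2a8, which encodes the glucose carrier GLUT8, at 31.6 TPM (27.4 to 37.3). The remaining 4 genes were scarce. Slc16a1, which encodes MCT1, was at 11.2 TPM (10.2 to 12.2), and Emb, the embigin gene, at 7.26 TPM (5.94 to 8.58). Slc16a3, which encodes MCT4, a carrier suited to lactate export, was at 6.10 TPM (4.83 to 7.22), and Slc2a1, which encodes the glucose carrier GLUT1, at 4.84 TPM (4.25 to 6.37).

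**Figure D1:**
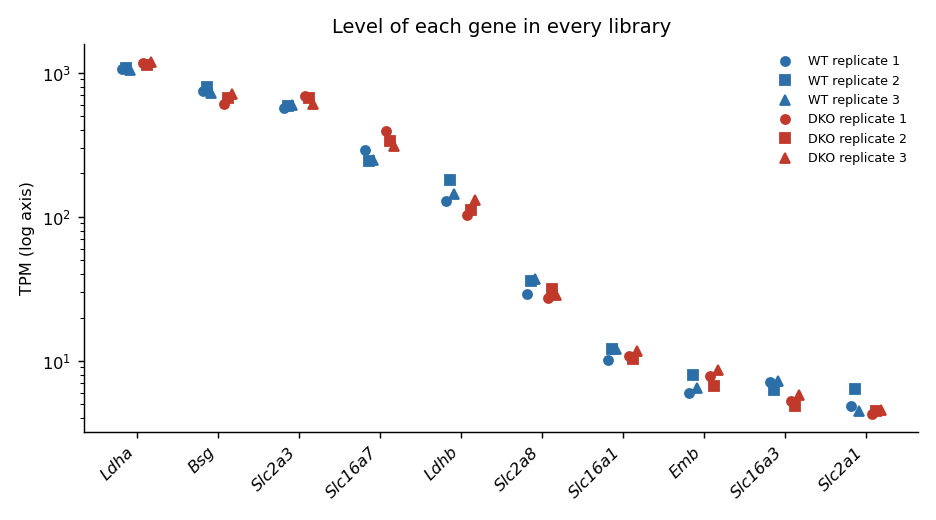
Level of the 10 genes in TPM (log axis) in each WT (blue) and DKO (red) library, ordered by the mean over 6 libraries, with 1 marker shape per replicate number, which does not pair libraries. Levels run from about 1115 TPM for Ldha to 4.84 TPM for Slc2a1, and in each gene both groups lie close together on this scale.

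The order was the same in every library except at 3 places. Bsg and Slc2a3 had overlapping ranges: Bsg was above Slc2a3 in 3 of 3 libraries labelled WT and in 1 of 3 labelled DKO. Emb and Slc16a3 overlapped too, with Emb the higher in 3 of 3 libraries labelled DKO and 1 of 3 labelled WT. Slc16a3 was above Slc2a1 in 5 of 6 libraries. The other neighbours in the order had ranges that did not overlap. Whole testis is mostly germ cells by mass, and these levels do not say which cell type holds a transcript.

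One of the 10 genes passed the test between genotypes. Slc16a7 was higher in libraries labelled DKO, by 1.37-fold, and the other 9 did not pass it. By the edgeR quasi-likelihood test at an adjusted p under 0.05, 1856 of 17110 tested genes were called (10.8%). Of all tested genes, 984 (5.75%) were called higher and 872 (5.10%) lower, so 1 call in 10 is near the background. On the TPM scale the balance was different, with 279 genes called higher and 456 lower by limma on log2(TPM + 1). All 10 genes passed the filter on low counts. In 6 of the 10 genes the CPM values did not overlap between the groups, 3 higher (Slc16a7, Slc2a3 and Ldha) and 3 lower (Slc16a3, Bsg and Ldhb) in libraries labelled DKO, against 35.9% of all tested genes (18.4% higher and 17.5% lower). The same 6 had an unadjusted p under 0.05, against 31.7% of all tested genes. The median log2 fold change of the 10 was -0.09, with 4 above and 6 below 0, beside a median of -0.0042 over all tested genes. In whole tissue, fewer cells of a type and less RNA per cell cannot be told apart.

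**Figure D2:**
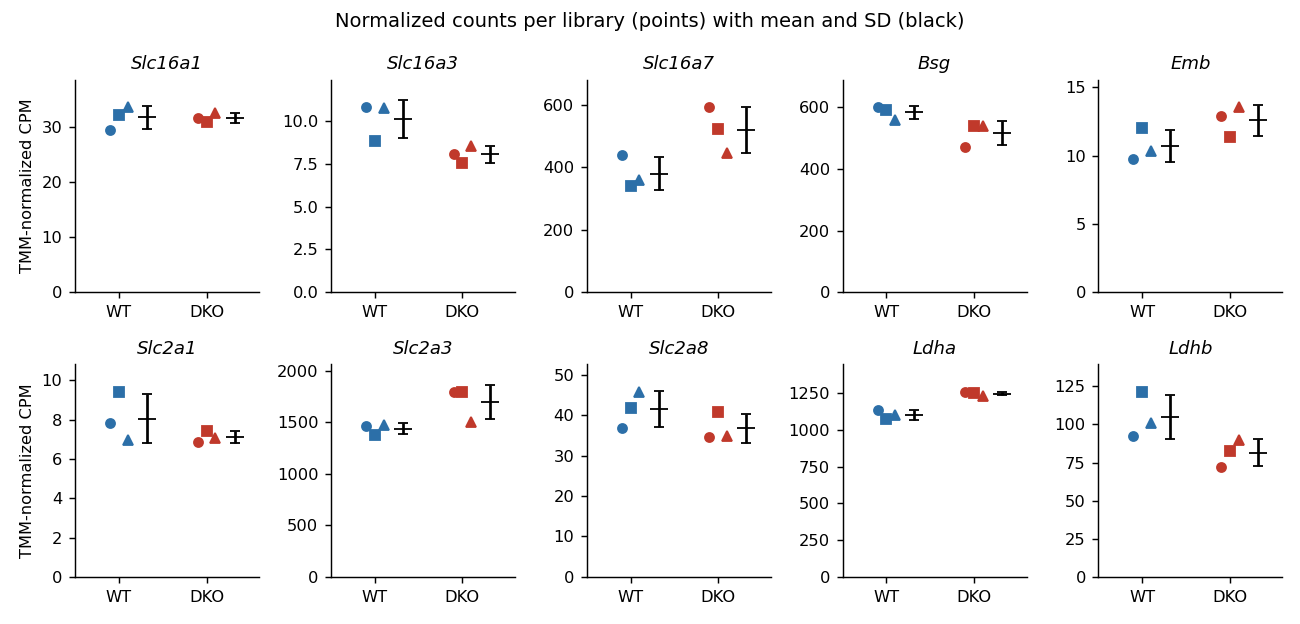
CPM of each gene in the 3 WT (blue) and 3 DKO (red) libraries, with the mean and SD (n = 3) in black beside the points and axes from 0. Slc16a7, Slc2a3 and Ldha lie higher and Slc16a3, Bsg and Ldhb lower in every library labelled DKO than in any labelled WT; only Slc16a7 passed the test.

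Among the monocarboxylate carriers, Slc16a7 (MCT2, which takes up lactate and pyruvate at low concentrations and is found on sperm tails) lies at chr10:125219270-125389586 on the minus strand. Its normalized level was 592, 522 and 445 CPM in libraries labelled DKO and 440, 339 and 361 CPM in those labelled WT. Every library labelled DKO was above every one labelled WT, but DKO replicate 3 and WT replicate 1 nearly met. The means were 520 ± 73.6 and 380 ± 53.1 CPM (SD, n = 3 each), which gave a log2 fold change of 0.45 with a standard error of 0.12 (edgeR adjusted p = 0.0381). An unverified transcript, Gm47862, overlaps Slc16a7 on the opposite strand, and whether strand was used in counting is not given in the sources used here. The call was lost in 4 of the 6 fits that left out 1 library, with adjusted p of 0.156 without DKO replicate 1, 0.0827 without DKO replicate 2, 0.132 without WT replicate 2 and 0.127 without WT replicate 3. It was also lost, at a log2 fold change of 0.26, when each library's trend on transcript length and GC content was removed (edgeR adjusted p = 0.166), and on the TPM scale at 0.40 (limma on log2(TPM + 1), adjusted p = 0.0544). Of the 12 other fits on all 6 libraries, 8 kept the call. DESeq2 was among them (adjusted p = 0.00205, with 11.7% of genes called higher).

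The level of Slc16a7 moved with fragment length. Ordered by mean fragment length, the libraries were DKO replicate 1 (317 bases), DKO 2 (289), DKO 3 (275), WT 1 (258), WT 3 (246) and WT 2 (230), and ordered by Slc16a7 CPM they stood in the same sequence. All 15 pairs of libraries, including the 6 pairs within a genotype, had the library of longer fragments at the higher Slc16a7 level. Such a complete match was seen in 5.07% of all tested genes. Since fragment length does not overlap between the groups, only genes higher without overlap in libraries labelled DKO can have it. There were 3147 such genes, and 867 of them had the match. With fragment length as a covariate, the log2 fold change of Slc16a7 was -0.07 (edgeR adjusted p = 0.999), in a fit that called 1 gene in all (0.00584%). Fragment length does not overlap between the genotypes, so the 2 cannot be told apart here.

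Slc16a1 (MCT1, the widespread lactate carrier, chr3:104638664-104658462) did not pass the test. It was at 31.6, 30.9 and 32.6 CPM in libraries labelled DKO and at 29.6, 32.2 and 33.6 CPM in those labelled WT. The DKO values lay inside the WT range, and the log2 fold change was -0.0033 (SE 0.0764, edgeR adjusted p = 0.982). Slc16a3 (MCT4, chr11:120948484-120959000) was at 8.10, 7.54 and 8.54 CPM in libraries labelled DKO and 10.8, 8.83 and 10.8 CPM in those labelled WT. The groups did not overlap, yet the log2 fold change of -0.33 (SE 0.11) did not pass the threshold (edgeR adjusted p = 0.0702), and it rests on 285 to 577 fragments a library. The 15 Sertoli markers summed to 629 to 659 CPM in the DKO-labelled libraries and to 750 to 819 CPM in the WT-labelled ones, also without overlap, and their part in the Slc16a3 values was not tested.

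The accessory glycoproteins did not pass the test either. Bsg (basigin, the partner of MCT1 and MCT4, chr10:79704358-79711979) was at 473, 540 and 540 CPM in libraries labelled DKO and 599, 590 and 560 CPM in those labelled WT. DKO replicate 1 was the lowest of all, and the groups did not overlap. The log2 fold change was -0.17 (SE 0.0765, edgeR adjusted p = 0.148), and it was 0.03 with the trends on length and GC content removed. Emb (embigin, the usual partner of MCT2, chr13:117220573-117274415) was at 12.9, 11.3 and 13.5 CPM against 9.75, 12 and 10.3 CPM. The groups overlapped (log2 fold change 0.23 with a standard error of 0.11, edgeR adjusted p = 0.164). Per length, the 3 monocarboxylate carriers together reached 0.554 ± 0.110 of the Bsg level in libraries labelled DKO and 0.372 ± 0.0405 in those labelled WT (SD, n = 3 each). The single ratios were 0.675, 0.528 and 0.459 against 0.413, 0.332 and 0.371 with no overlap (exact two-sided permutation p = 0.1, adjusted over 5 ratios 0.125). An exact test on 3 libraries a group cannot give a p below 0.1. Slc16a7 made up 95.5% of the carrier sum in libraries labelled DKO and 93.4% in those labelled WT. The ratio is therefore mostly that of Slc16a7 to Bsg, not to its usual partner.

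Of the 3 glucose carriers, Slc2a3 (GLUT3, chr6:122727809-122802363) had the most abundant transcript. Its level was 1795, 1792 and 1507 CPM in libraries labelled DKO and 1462, 1376 and 1479 CPM in those labelled WT. DKO replicates 1 and 2 stood well above all WT libraries, and DKO replicate 3 only just. The log2 fold change was 0.24 (SE 0.0844), which did not pass with edgeR (adjusted p = 0.0813) and did with DESeq2 (adjusted p = 0.0361), where 20.4% of genes were called, 11.7% higher. Slc2a3 followed fragment length in 14 of 15 pairs of libraries, and with fragment length as a covariate its log2 fold change was 0.01. Slc2a1 (GLUT1, the carrier through which Sertoli cells are known to take up glucose, chr4:119108745-119137330) was at 6.85, 7.43 and 7.09 CPM against 7.82, 9.40 and 6.95 CPM, and the groups overlapped. Its log2 fold change was -0.18 (SE 0.12, edgeR adjusted p = 0.331), from 206 to 479 fragments a library, and it was -0.06 without WT replicate 2 and -0.28 without WT replicate 3. Slc2a8 (GLUT8, an intracellular carrier of spermatids and sperm, chr2:32972981-32982083) was at 34.6, 40.8 and 34.8 CPM against 36.8, 41.8 and 45.7 CPM, again with overlap. Its log2 fold change was -0.17 (SE 0.0970, edgeR adjusted p = 0.238), and it was -0.10 without WT replicate 3, -0.27 without WT replicate 1 and -0.27 without DKO replicate 2. Slc2a3 made up 95.1% ± 0.426 of the summed TPM of the 3 glucose carriers in libraries labelled DKO and 93.7% ± 0.590 in those labelled WT (SD, n = 3 each; exact two-sided permutation p = 0.1, adjusted 0.125).

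The 2 lactate dehydrogenase members differed in opposite directions, and neither passed the edgeR threshold. Ldha (chr7:46842274-46855627) was at 1258, 1249 and 1235 CPM in libraries labelled DKO and 1138, 1072 and 1100 CPM in those labelled WT. The groups were well apart relative to their spread, at 1247 ± 11.8 and 1103 ± 33.1 CPM (SD, n = 3 each), but the difference was small (log2 fold change 0.18 with a standard error of 0.0672, edgeR adjusted p = 0.0982). Ldhb (chr6:142490249-142507957) was at 71.9, 82.5 and 89.6 CPM against 92.6, 121 and 101 CPM. All DKO values were below all WT values in CPM, with means of 81.3 ± 8.87 and 105 ± 14.7 CPM (SD, n = 3 each) and a log2 fold change of -0.37 (SE 0.11). In TPM the groups overlapped, with DKO replicate 3 at 130 and WT replicate 1 at 128. The edgeR adjusted p of Ldhb was 0.050001, just outside the threshold, and Ldhb was called lower in 4 of the 12 other fits on all 6 libraries, DESeq2 among them (adjusted p = 0.00972, with 8.70% of genes called lower).

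Both dehydrogenase genes also ordered the libraries by fragment length. The library of longer fragments had the higher Ldha level in 15 of 15 pairs and the lower Ldhb level in 15 of 15, an inverse match seen in 2.05% of all tested genes. Only the 3000 genes lower without overlap in libraries labelled DKO can have that inverse match, and 350 of them had it. With fragment length as a covariate, the log2 fold changes were 0.11 for Ldha and 0.10 for Ldhb (edgeR adjusted p = 0.999 for both). With the trends on length and GC content removed, they were 0.25 (adjusted p = 0.0756) and -0.24 (adjusted p = 0.154). Per length, Ldha made up 92.0%, 90.9% and 90.2% of the summed Ldha and Ldhb TPM in libraries labelled DKO and 89.2%, 85.7% and 88.0% in those labelled WT. The groups did not overlap, with means of 91.0% ± 0.907 and 87.6% ± 1.76 (SD, n = 3 each; exact two-sided permutation p = 0.1, adjusted 0.125).

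**Figure D3:**
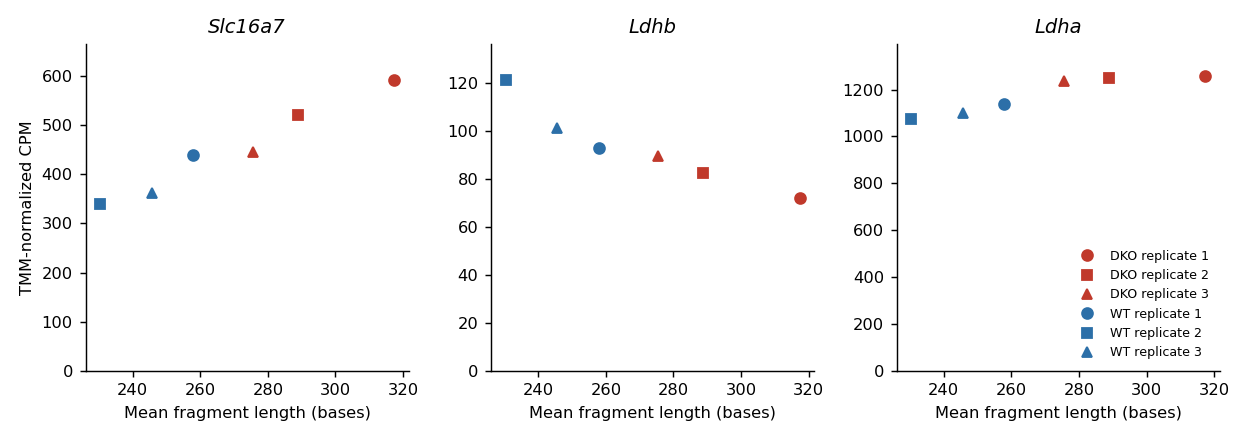
CPM (axis from 0) against the mean fragment length of the library in bases, for Slc16a7, Ldhb and Ldha, in WT (blue) and DKO (red) libraries with 1 marker shape per replicate number. Across the 6 libraries, Slc16a7 and Ldha are higher and Ldhb is lower with each step up in fragment length, within the genotypes as well as between them.

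**Figure D4:**
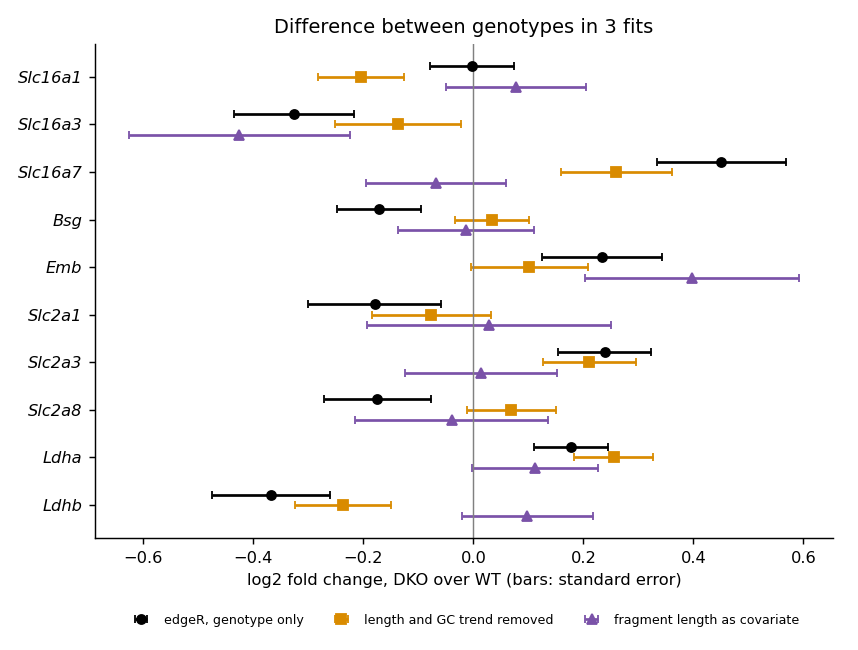
Log2 fold change (DKO over WT) with its standard error for each gene in 3 edgeR fits on all 6 libraries: genotype only, with trends on transcript length and GC content removed, and with fragment length as a covariate. Slc16a7 stands at 0.45, 0.26 and -0.07 and Ldhb at -0.37, -0.24 and 0.10.

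The testis subunit gene Ldhc was the most abundant lactate dehydrogenase transcript at 4141 TPM. It made up 76.6% ± 0.126 of the summed TPM of Ldha, Ldhb and Ldhc in libraries labelled DKO and 77.1% ± 0.400 in those labelled WT (SD, n = 3 each; exact two-sided permutation p = 0.2, adjusted 0.2). Slc16a7 likewise made up most of the summed TPM of the 3 monocarboxylate carriers, with 95.5% ± 0.750 in libraries labelled DKO and 93.4% ± 0.873 in those labelled WT (SD, n = 3 each; exact two-sided permutation p = 0.1, adjusted 0.125).

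The other 61 genes listed for lactate and glucose handling were all found, and 50 passed the filter on low counts. Of these 50, 3 were called lower, against 5.10% of all tested genes, and 0 were called higher by edgeR, with 3 higher at an unadjusted p under 0.05 and 1 called higher by DESeq2. The 3 were glycolytic enzymes of somatic type, from a list of 19 that had a median log2 fold change of -0.08. Gapdh, the glyceraldehyde-3-phosphate dehydrogenase, was at 124, 154 and 146 CPM in libraries labelled DKO and 174, 231 and 187 CPM in those labelled WT (log2 fold change -0.48 with a standard error of 0.11, edgeR adjusted p = 0.0326). The deposited Gapdh counts are not whole numbers, so some of its fragments were shared with other listed genes and its level is less certain. Pfkl, the liver-type phosphofructokinase, was at 20.8, 27.0 and 25.5 CPM against 30.8, 41.3 and 31.9 CPM (log2 fold change -0.50 with a standard error of 0.13, edgeR adjusted p = 0.0358). Hk2, the inducible hexokinase, was at 40.9, 46.9 and 46.8 CPM against 54.4, 61.3 and 53.7 CPM (log2 fold change -0.33 with a standard error of 0.0831, edgeR adjusted p = 0.0360). The groups did not overlap in any of the 3 genes. Without DKO replicate 1, WT replicate 2 or WT replicate 3, none of the 50 was called. Without DKO replicate 2, Hk2 (edgeR adjusted p = 0.0633) and Pfkl (adjusted p = 0.0560) were no longer called. With the trends on length and GC content removed, Hk2 was the 1 of the 3 still called, while Gapdh was at -0.29 (edgeR adjusted p = 0.0926) and Pfkl at -0.34 (adjusted p = 0.0825). On either TPM scale, limma called none of the 3. With fragment length as a covariate the log2 fold changes were -0.03 for Gapdh, 0.0042 for Pfkl and -0.07 for Hk2.

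Outside glycolysis, no listed gene was called by edgeR. Of the 11 tested genes among 14 other monocarboxylate carriers and partners, 0 were called by edgeR or DESeq2, and 1 had an unadjusted p under 0.05. Neuroplastin (Nptn), another partner of MCT2, was at 24.9 and 26.0 CPM, labelled DKO against WT. Of the 9 tested genes among 16 other glucose carriers, 0 were called by either tool and 0 had an unadjusted p under 0.05. The most abundant of these was Slc2a5, a fructose carrier, at 378 TPM, which was above Slc2a8 and Slc2a1. Of 5 other dehydrogenases and pyruvate carriers, edgeR called 0, 2 had an unadjusted p under 0.05, and DESeq2 called Mpc2, a subunit of the mitochondrial pyruvate carrier, higher and Ldhd, the D-lactate dehydrogenase, lower. Among them Ldhal6b, a testis relative of Ldha, was at 1164 TPM. Mpc2 did not overlap between the groups, and Ldhd did. Ldhd was at 3.77, 4.20 and 5.14 CPM in libraries labelled DKO and 5.12, 9.16 and 5.27 CPM in those labelled WT. DESeq2 called 11.7% of the genes it tested higher and 8.70% lower. Of 6 tested regulators, Txnip and Hif1a among them, 0 were called by either tool and 1 had an unadjusted p under 0.05.

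Cell type markers also differed between the groups. Of 15 Sertoli markers, 6 were called lower (Rhox5, Rhox8, Dhh, Cldn11, Trf and Defb19), against 5.10% of all tested genes, and 0 higher. The log2 fold changes of the 15 were below 0 in 13 and above 0 in 2, with a median of -0.28. Wt1 and Fshr were the 2 above 0 (0.08 each), and Sox9 (-0.15), Amhr2 (-0.09) and Gata1 (-0.01) were not called either. Of 9 Leydig markers 3 were called lower, with a summed level of 458 to 668 CPM in libraries labelled DKO and 643 to 1213 CPM in those labelled WT. Against 5.75% of all tested genes called higher, 2 of 10 spermatocyte markers were, at 1278 to 1653 CPM against 1176 to 1294 CPM, and of 10 spermatid markers 1 was called higher, at 19931 to 23792 CPM against 21015 to 23702 CPM. No tested marker was called by edgeR among 9 of spermatogonia, 8 of them tested (123 to 129 against 120 to 134 CPM), 6 of peritubular and endothelial cells (122 to 139 against 139 to 172 CPM), 5 of macrophages (49.97 to 56.8 against 43.7 to 64.0 CPM) and 6 of erythroid cells, of which only Hba-a1 and Alas2 were tested (22.2 to 26.3 against 21.8 to 24.3 CPM). Alas2 alone made up 20.8 to 26.0 CPM and 20.7 to 23.6 CPM of the erythroid sum. At an unadjusted p under 0.05 these 4 lists had 0, 3, 2 and 0 genes, and DESeq2 called 2 peritubular or endothelial markers and 0 in the other 3. Calls varied with transcript length. Of all tested genes in the shortest of 10 length classes 16.0% were called lower, and 1.58% in the longest. Of the Sertoli markers called lower, Defb19 (394 bases) and Rhox5 (800 bases) are in the shortest class. Rhox8 (1206 bases), Cldn11 (1872), Trf (2332) and Dhh (2367) are in longer ones. The marker calls were not followed in the fits that left out a library. The part of these marker differences in the values of the 10 genes was not tested.

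The genes whose pattern over the 6 libraries was most like that of Slc16a7, the called gene, were Ccdc150 (Pearson's r = 0.9995 of log2 CPM) and Adam4 (r = 0.9991). They led a pool of 10138 genes whose average log2 CPM was 3 or more, of which 931 had r above 0.95, so a close match over these 6 libraries was common.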

How the data were processed

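Whole-testis RNA was sequenced in 6 libraries, 3 per labelled genotype. STAR 2.7.0f, RSEM 1.2.31, DESeq2 1.12.3 and build mm10 are named, per the submitters' processing notes; strand handling is not given in the sources used here. The authors deposited 1 RSEM table per library, with expected counts, TPM and abundance-weighted lengths in bases per gene, per the file headers. Coordinates are those of RefSeq on GRCm38.p6, the same assembly as mm10. The expected counts of all 10 genes were whole numbers in every library, so none shared fragments with another listed gene. On the opposite strand, GENCODE exons overlap Slc16a7 (Gm47862), Emb (Gm17509) and Slc2a1 (Gm12868), so the counts of these 3 are uncertain.

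From the deposited estimated counts, rounded, genes were filtered with filterByExpr, scaled by TMM and tested with the edgeR 4.0.16 quasi-likelihood test (genotype as sole term, all libraries, Benjamini-Hochberg over 17110 genes, threshold 0.05; R 4.3.3). Values per library are TMM-normalized CPM. A standard error is the absolute log2 fold change over the square root of F. Ratios use the deposited TPM. Fragment length was recovered per library as length less effective length, plus 1, taking the median over genes longer than 3000 bases. Other fits used DESeq2 1.42.0, limma 3.58.1 (limma-voom, and log2(TPM + 1) or log2(TPM + 0.1)), other scaling and filters, an effective-length offset, thinning, and trends removed with mgcv 1.9.3. GC content came from GENCODE M21 transcripts, found for 97.8% of genes. The tests were tried on simulated counts first. The 10 genes and all lists were chosen with earlier results of these data known. Named genes are the 10, both targeted genes, called pathway genes, the 2 genes most like each called member and defining markers at 0. Slc2a5, Ldhal6b, Nptn, Mpc2, Ldhd, Txnip, Hif1a, Ldhc, Alas2, Hba-a1 and all Sertoli markers given by name were named after their values were seen.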

Additional observations from a re-analysis of the deposited data

How the results depend on the processing

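No paired analysis was possible because the labels number the mice differently in each genotype; the replicate numbers used here follow the order of the sample list and only name libraries. Over the 6 fits that each left out a replicate, calls ranged from 7 to 3029 genes, 0 to 1903 higher and 7 to 1126 lower; among the 10 genes from 0 to 2 higher and 0 to 1 lower; among the other pathway genes from 0 to 2 higher and 0 to 5 lower. A threshold of 0.01 gave 7 genes (0 higher, 7 lower), with 0 of the 10 and 0 pathway genes. The fragment-length covariate left 1 gene, 0 higher and 1 lower, with 0 of the 10 and 0 pathway genes. Removing length and GC trends, an alternative chosen after seeing the data, left 494 genes, 304 higher and 190 lower, with 0 of the 10, and 2 pathway genes higher and 1 lower. On log2(TPM + 1), limma gave 735 calls (279 higher, 456 lower), with 0 of the 10 and 0 pathway genes, and on log2(TPM + 0.1) 947 calls (370 higher, 577 lower), with 0 of the 10, and 1 pathway gene higher and 1 lower. DESeq2 called 2895 genes, 1658 higher, with 2 of the 10 higher and 1 lower, and 1 pathway gene higher and 5 lower. Ldhb was the 1 member called lower with DESeq2 size factors, without the count filter and with a mean count of at least 50. One pathway gene was called higher without the count filter, with the effective-length offset and with the length trend removed.

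Directions changed as follows. With the fragment-length covariate, the log2 fold change was 0.0771 for Slc16a1, -0.0677 for Slc16a7, 0.0283 for Slc2a1, 0.0982 for Ldhb and 0.0042 for Pfkl. With length and GC trends removed, it was 0.0339 for Bsg and 0.0692 for Slc2a8. Slc16a1 was at 0.0055 without the count filter and ranged from -0.0675 to 0.0386 when a replicate was left out, with 0.0055 without DKO replicate 2. The causes of these changes were not tested. The 5 ratios kept their direction in all 8 alternatives each, but some sizes moved. From counts not divided by length, the DKO less WT difference was -1.12 percentage points for the Ldhc share (-0.467 from TPM), 0.801 for the Slc2a3 share (1.42) and 0.368 for the carriers relative to Bsg (0.182). The Ldhc share differed by -0.783 per base of full length and by -0.303 without WT replicate 3. Emb, Slc16a3, Slc2a3 and Ldha kept theirs in all 18. Depth limits Slc2a1 and Slc16a3 most, with a mean of 304.5 and 360 fragments a library.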
